A study of Homo sapiens with 6 samples.

Results

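The insulin-like growth factor (IGF) system was followed by RNA-seq in MG63 cells after knockdown of FUBP1. Its members were taken by name from the deposited gene table: the binding proteins IGFBP1 to IGFBP7, the ligand IGF2, the receptor IGF1R and the protease PAPPA. These 10 symbols matched 11 of the 58735 genes, since IGF2 has 2 identifiers, and 7 of the 11 passed the filter on low counts that left 16116 genes to be tested. MG63 is an established human osteosarcoma line with no engineered allele named in the labels, so the groups describe a single line in culture. The cells were transfected with siRNA against FUBP1 (siFUBP1, 3 samples) or with a negative control siRNA (siMock, 3 samples), and the RNA of both groups was taken 48 h later. The text read here does not say which of the FUBP1 siRNAs was sequenced. Total counts per sample lay between 16309900 and 17484313 in siMock and between 16499842 and 17073410 in siFUBP1. The labels do not say whether the 3 samples of a group were separate cultures, so p-values measure the spread between these samples, which may be technical.

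IGF ligands act through IGF1R, a receptor tyrosine kinase that signals through the IRS adaptors, PI3K and AKT. In tissue fluid most of the ligand is held by IGF binding proteins, which carry it, delay its clearance and in many settings keep it from the receptor. Proteases such as PAPP-A, the product of PAPPA, cut some of the binding proteins and free the ligand, and the stanniocalcins inhibit PAPP-A. Bone is a classic tissue for this system: osteoblasts secrete several IGFBPs, and IGFBP4 is the best known substrate of PAPP-A.

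The promoters of IGFBP3, IGFBP4 and PAPPA are shown because these are members whose transcripts were higher after the knockdown and for which the sequence table held an entry. It held entries for 7 of the 10 symbols. Each run below is the 250 bases before the RefSeq start of the gene (GRCh38.p14), written 5′ to 3′ on the strand of the gene. Capitals mark a match on either strand to the core promoter letters TATAAA, called the TATA element, or to those of the Sp1-bound GC box, which are GGGCGG. The IGFBP3 window is chr7:45921273-45921522 (minus strand), that of IGFBP4 is chr17:40443200-40443449 (plus strand) and that of PAPPA is chr9:116153541-116153790 (plus strand).

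IGFBP3: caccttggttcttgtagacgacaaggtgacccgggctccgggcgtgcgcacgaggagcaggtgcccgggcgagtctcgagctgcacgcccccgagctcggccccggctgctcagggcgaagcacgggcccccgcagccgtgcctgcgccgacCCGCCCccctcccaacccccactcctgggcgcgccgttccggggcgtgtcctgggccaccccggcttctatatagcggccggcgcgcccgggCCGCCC
IGFBP4: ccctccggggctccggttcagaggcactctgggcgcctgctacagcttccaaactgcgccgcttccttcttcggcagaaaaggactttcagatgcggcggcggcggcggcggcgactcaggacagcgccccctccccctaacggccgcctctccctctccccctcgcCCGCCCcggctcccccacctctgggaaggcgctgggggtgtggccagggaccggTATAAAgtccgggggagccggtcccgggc
PAPPA: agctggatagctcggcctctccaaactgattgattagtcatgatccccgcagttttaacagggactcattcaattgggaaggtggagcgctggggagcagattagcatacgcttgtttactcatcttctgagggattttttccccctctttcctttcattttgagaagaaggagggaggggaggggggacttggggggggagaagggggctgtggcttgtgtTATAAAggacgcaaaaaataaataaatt

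GENCODE 29 also annotates a longer IGFBP3 gene model that spans its window, with 2 exonic bases inside it. The IGFBP3 window holds 2 GC boxes, of which one ends at the start site, and no TATAAA. The IGFBP4 window holds 1 TATAAA that begins 29 bases before the start and 1 GC box, and the PAPPA window 1 TATAAA that begins 28 bases before the start and no GC box. Among 35116 promoter windows of the same length, 10.7% hold TATAAA and 42.6% hold GGGCGG on either strand. The GC content was 76% in the IGFBP3 window, 71.6% in that of IGFBP4 and 48% in that of PAPPA, against a median of 58% over all windows. Neither CAAAACAA (the core of the FOXO-binding insulin response element) nor TGATGNAA (the ATF4 composite element) is present in a window of these 3 genes on either strand, and 1.46% and 3.14% of all windows hold them. These motifs do not overlap each other in the printed windows, and a match is a run of letters and not a tested site.

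The knockdown was seen in each library. FUBP1 (ENSG00000162613) was at 237, 255 and 274 CPM in the siMock samples and at 44.4, 43.4 and 53.0 CPM in the siFUBP1 samples, where CPM (counts per 1000000) is the count scaled by the library size and its TMM factor. The labelled cell type was then set against 9 markers of the osteoblast lineage. COL1A1, a chain of type I collagen, gave 99.25% of the summed siMock level of the list, at 113 ± 4.67 CPM (SD, n = 3). COL1A2, which encodes the partner chain, and IBSP, a bone matrix protein, had a count of 0 in every sample. ALPL, SPARC, SP7, BGLAP and SPP1 were too low to be tested, with 2, 12, 7, 40 and 53 reads over the 6 samples. RUNX2, the lineage's transcription factor, was at 0.49, 0.471 and 0.384 CPM in siMock and at 4.32, 5.59 and 2.23 CPM in siFUBP1. Most defining markers of osteoblast-lineage cells were therefore absent or near 0 in these libraries, and the cells are called MG63 below as the labels give them.

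The 12 markers of other cell types chosen here were low in both groups. The 4 haematopoietic markers summed to between 0.512 and 1 CPM in siMock and between 0.115 and 0.829 CPM in siFUBP1, with CD14 the most abundant and CD3E at 0. The 4 endothelial markers summed to at most 5.18 CPM in any sample, with CDH5 the most abundant. The 4 epithelial markers summed to at most 6.16 CPM, with EPCAM the most abundant and KRT5 at 0. MSLN, which encodes the mesothelial surface protein mesothelin and was in none of these lists, was at 347 ± 51.0 CPM in siMock and 141 ± 5.35 CPM in siFUBP1 (SD, n = 3 in each group), above COL1A1 in both groups. It was picked out after its values were seen. Of the osteoblast markers, only COL1A1 gave a change between the groups that can be called. COL1A1 fell to 45.5 ± 0.15 CPM in siFUBP1 (SD, n = 3; log2 fold change -1.31, adjusted p = 1.83e-13), and with it the summed list went from between 109 and 119 CPM to between 49.7 and 52.5 CPM. RUNX2 was higher in every siFUBP1 sample, but 0 of the 3 siMock samples reached 0.599 CPM, the level the filter asks for in 3 samples. It entered the test only through the group where it was high, and its fold change and p are not given. The untested SPP1 and BGLAP were at 1 to 2 and 2 to 4 reads per siMock sample and at 7 to 22 and 8 to 13 reads per siFUBP1 sample. The part of these markers in the results below was not tested. In bulk RNA, fewer cells that express a gene and less of its RNA per cell cannot be told apart.

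The IGF binding protein transcripts moved in both directions after FUBP1 knockdown. IGFBP1, IGFBP3 and IGFBP4 rose, and PAPPA rose to a smaller degree, while IGFBP6 and IGFBP7 fell. The receptor IGF1R did not pass the test, and IGFBP2, IGFBP5 and IGF2 had at most 1 read. A gene was said to rise or fall at an adjusted p below 0.05 by edgeR's quasi-likelihood test over the 16116 genes. Of the 7 members tested, 4 rose and 2 fell. Over all tested genes 30.1% rose and 30.1% fell, so that a change at this threshold is common in these data. With a log2 fold change beyond 1 as well, 3 members rose and 1 fell, against 8.16% and 9.13% of all tested genes. Groups were clear of each other for 6 of the 7 members, against 63.9% of the 16116 genes. The 7 tested members had at least 97 counts in every sample, so none passed the filter through 1 group alone. On the log2 scale the median change was 0.70 among the 7 members and 0.0020 among all genes tested.

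**Figure D1:**
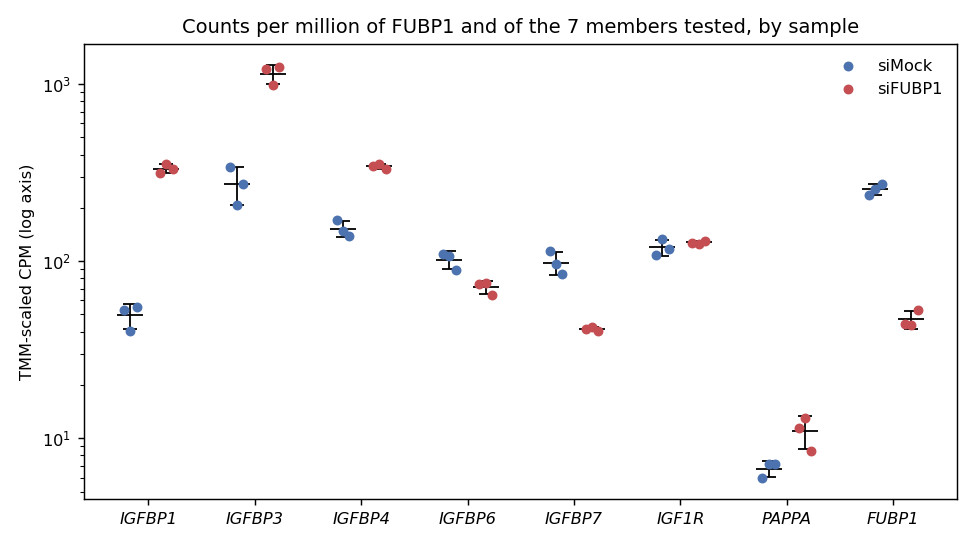
Normalized level (TMM-scaled CPM, log axis) of the 7 members tested and of FUBP1, with a point for each of 3 siMock and 3 siFUBP1 samples and bars for the mean and SD. The siFUBP1 points of IGFBP1, IGFBP3, IGFBP4 and PAPPA lie above all siMock points, those of IGFBP6, IGFBP7 and FUBP1 lie below them, and those of IGF1R lie among them.

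IGFBP1 had the highest fold change of the members. It encodes a small binding protein known as a liver product that insulin represses. IGFBP1 (ENSG00000146678, chromosome 7, 45888357 to 45893668 on GRCh38, plus strand) was at 53.1, 40.4 and 54.9 CPM in the siMock samples and at 314.5, 353 and 331 CPM in the siFUBP1 samples. The lowest siFUBP1 sample lay far above the highest siMock sample, and the spread within each group was small beside the gap. The log2 fold change was 2.75 (SE, the standard error, 0.10, adjusted p = 4.11e-17), or 6.74-fold.

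IGFBP3, the main carrier of IGF in serum and a member with reported actions of its own on cell growth, had the highest level per length of all members after the knockdown. IGFBP3 (ENSG00000146674, chromosome 7, 45912245 to 45921874, minus strand) was at 340, 207 and 272 CPM in siMock and at 1212, 984 and 1242 CPM in siFUBP1. In both groups replicate 2 was the lowest sample, and its spread was wider than that of IGFBP1 or IGFBP4. The log2 fold change was 2.07 (SE 0.18, adjusted p = 2.27e-05).

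IGFBP4, a binding protein that inhibits IGF action in most settings, rose by a smaller factor with tight replicates. IGFBP4 (ENSG00000141753, chromosome 17, 40443461 to 40457731, plus strand) was at 170, 149 and 139 CPM in siMock and at 343, 353.5 and 331 CPM in siFUBP1. The groups stood clear of each other, with a log2 fold change of 1.17 (SE 0.08, adjusted p = 3.90e-12), or 2.25-fold.

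IGFBP7 fell. It encodes a secreted protein of the matrix and vessel wall that binds IGFs weakly. IGFBP7 (ENSG00000163453, chromosome 4, 57030773 to 57110385, minus strand) was at 113.5, 96.6 and 84.1 CPM in siMock and at 41.2, 42.5 and 40.1 CPM in siFUBP1. The siFUBP1 samples were nearly alike and all lay below the lowest siMock sample, with a log2 fold change of -1.25 (SE 0.09, adjusted p = 1.77e-11). On the opposite strand it shares 270 exonic bases with POLR2B and 94 with IGFBP7-AS1, together 18.9% of its exonic bases, and whether the counting used the strand is not given in the sources used here. POLR2B was at 139 CPM in siMock and 122 CPM in siFUBP1 (adjusted p = 0.0688 in the same test), and IGFBP7-AS1 had a count of 0.

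IGFBP6, which prefers IGF2 over IGF1, fell less. IGFBP6 (ENSG00000167779, chromosome 12, 53097436 to 53102345, plus strand) was at 110, 107 and 88.6 CPM in siMock and at 74.3, 75.5 and 64.7 CPM in siFUBP1. In both groups replicate 3 was the lowest, and the highest siFUBP1 sample lay below the lowest siMock sample. The log2 fold change was -0.51 (SE 0.09, adjusted p = 1.89e-05).

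IGFBP2 and IGFBP5, a pair of binding proteins that lie next to each other on chromosome 2, were not expressed at a level these libraries could measure. IGFBP2 (ENSG00000115457, 216632828 to 216664436, plus strand) had a count of 0 in every sample, which allows up to 3 counts, or between 0.172 and 0.184 CPM before TMM scaling, in each library. These limits cover counting error only. IGFBP5 (ENSG00000115461, 216672105 to 216695525, minus strand), known as the most abundant binding protein of bone matrix, had 1 read, in siMock replicate 1. No difference between the groups was detectable at this depth for either gene.

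The gene order on chromosome 7 places IGFBP1 and IGFBP3 as neighbours whose ends are 18.6 kb apart and which point toward each other. Both rose, by 2.75 and 2.07 on the log2 scale. Within 500 kb of the pair the table lists 2 further protein-coding genes. ADCY1, which encodes an adenylate cyclase, went from 5.17 ± 0.456 CPM to 3.19 ± 0.114 CPM (SD, n = 3 in each group), a log2 fold change of -0.69 (adjusted p = 0.00329), and AC096582.3 had a count of 0. The pair on chromosome 2, 7.67 kb apart, had at most 1 read while other genes nearby were counted. Of 5 further protein-coding genes within 500 kb, 3 were tested, and 1 rose and 2 fell, against 30.1% and 30.1% of all tested genes. The nearest of the 3, RPL37A, encodes a ribosomal protein and has processed pseudogenes that could share its reads. It went from 369 ± 33.4 CPM to 297 ± 34.5 CPM (SD, n = 3 in each group), a log2 fold change of -0.32 (adjusted p = 0.00313). XRCC5, which encodes a subunit of the Ku complex of DNA end joining, was at 373 ± 31.7 CPM in siMock and 314 ± 20.4 CPM in siFUBP1 (SD, n = 3 in each group), a log2 fold change of -0.25 (adjusted p = 0.0107). SMARCAL1, a DNA annealing helicase, was at 11.4 ± 0.252 and 16.7 ± 1.25 CPM (SD, n = 3 in each group), a log2 fold change of 0.55 (adjusted p = 3.03e-04). The neighbours were chosen by position after the members' values were seen.

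Compared per length, the set of binding proteins changed its order. On the FPKM scale deposited by the authors, the siMock order was IGFBP6 (75.0 ± 8.80 FPKM), IGFBP4 (68.5 ± 7.08), IGFBP3 (59.1 ± 14.3), IGFBP7 (50.2 ± 7.60) and IGFBP1 (29.6 ± 4.64; SD, n = 3 for each). From IGFBP6 to IGFBP7 each gene overlapped the next in its samples, and only IGFBP1 stood clear below. In siFUBP1 the order was IGFBP3 (249 ± 30.0 FPKM), IGFBP1 (200 ± 12.3), IGFBP4 (155 ± 5.45), IGFBP6 (52.8 ± 4.47) and IGFBP7 (21.2 ± 0.682), with no overlap between neighbours in the order. IGF1R at 8.47 ± 0.869 and 9.10 ± 0.176 FPKM and PAPPA at 0.576 ± 0.0594 and 0.943 ± 0.201 FPKM (SD, n = 3) stood below all 5 in siMock and siFUBP1.

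Summed over the 7 IGFBP genes, the level was 320.6, 265 and 262 FPKM in the siMock samples and 682, 666 and 686 FPKM in the siFUBP1 samples. All siFUBP1 sums lay above every siMock sum, and the ratio of the group means was 2.40 (exact two-sided permutation test, p = 0.1, the smallest that 3 samples against 3 can give). The share of IGFBP1 in the sum went from 10.5 ± 1.77% to 29.6 ± 2.23%, and that of IGFBP3 from 20.8 ± 3.31% to 36.7 ± 3.88% (SD, n = 3 in each group). IGFBP6 went from 26.6 ± 2.78% to 7.79 ± 0.752%, and IGFBP7 from 17.8 ± 1.2% to 3.13 ± 0.149% (SD, n = 3 in each group). Each of these 4 shares also had p = 0.1 in the exact permutation test, and the sum and these shares had an adjusted value of 0.12 over the 6 tests of this family. The share of IGFBP4 was 24.3 ± 0.870% in siMock and 22.8 ± 1.15% in siFUBP1 (SD, n = 3 in each group), a difference of -1.47 percentage points with overlapping groups (exact permutation p = 0.3, also after adjustment). That difference was -0.94 without siFUBP1 replicate 3, -0.97 without siMock replicate 2 and -2.08 without siFUBP1 replicate 2, and -5.99 when only IGFBP1 to IGFBP6 were summed. All shares are parts of 1 sum, so they are tied to each other and are not separate results. From siMock to siFUBP1 the level of IGFBP6 itself went from 75.0 to 52.8 FPKM, and that of IGFBP4 from 68.5 to 155 FPKM.

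**Figure D2:**
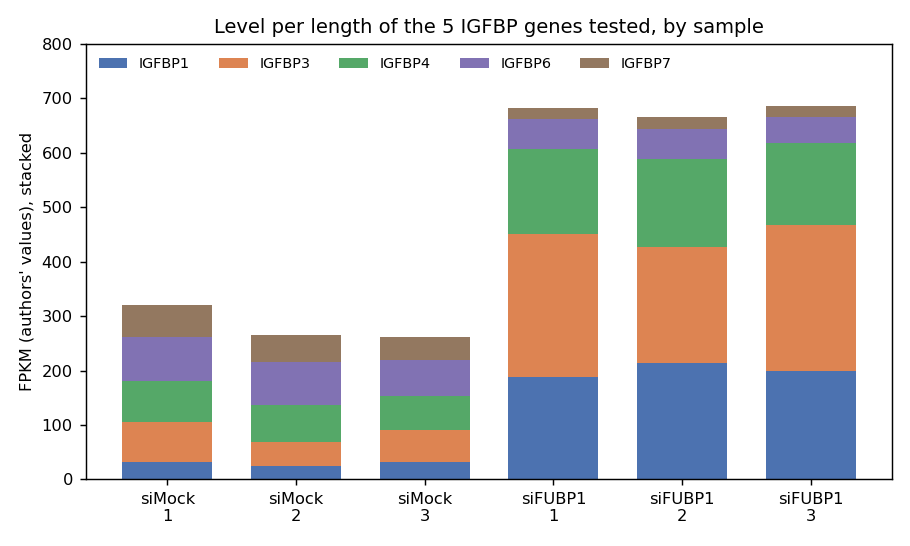
Stacked level per length (the authors' FPKM, axis from 0) of the 5 IGFBP genes tested, a bar for each of the 6 samples. The 3 siFUBP1 bars reach 666 to 686 FPKM, with IGFBP1 and IGFBP3 as the largest blocks, and the 3 siMock bars reach 262 to 320.6 FPKM, with IGFBP6 and IGFBP4 as the largest blocks on average.

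The ligand and the receptor gave no called change. IGF2 is listed under 2 identifiers (ENSG00000167244, chromosome 11, 2129112 to 2149603, and ENSG00000284779, 2129112 to 2158658, both minus strand), and both had a count of 0 in every sample. They share 73.7% and 89.97% of their exonic bases with other genes on the same strand, mainly with each other and with INS-IGF2, which also had a count of 0. A counting program that leaves out reads of overlapping genes would list 0 over those bases, and how such reads were handled is not given in the sources used here, so the 0 bears on IGF2 only through the bases it does not share. IGF1, the other ligand, and IGF2-AS were at 0 as well. For IGF1 the 0 carries a like limit, since 82.4% of its exonic bases are shared with HELLPAR on the opposite strand, which had 489 counts, and the use of strand is unknown.

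IGF1R (ENSG00000140443, chromosome 15, 98648539 to 98964530, plus strand) was at 109, 133 and 117 CPM in siMock and at 126, 126 and 131 CPM in siFUBP1. The siFUBP1 samples lay inside the siMock range. The log2 fold change was 0.10 (SE 0.08, adjusted p = 0.314), and over the alternatives it lay between 0.028 and 0.18, without passing the threshold.

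PAPPA encodes a metalloprotease that cuts IGFBP4, and also IGFBP2 and IGFBP5. PAPPA (ENSG00000182752, chromosome 9, 116153804 to 116402322, plus strand) was at 5.94, 7.12 and 7.17 CPM in siMock and at 11.4, 13.0 and 8.48 CPM in siFUBP1, from 97 to 226 reads per sample. All siFUBP1 samples were higher, with replicate 3 closest to the controls. The log2 fold change was 0.70 (SE 0.16, adjusted p = 5.62e-04). With limma on log2(FPKM + 1), where the added 1 is as large as its own values, it was 0.30 (adjusted p = 0.0225, and between 2.61e-05 and 0.0281 across the edgeR, DESeq2 and limma alternatives). PAPPA shares 21.2% of its exonic bases with PAPPA-AS1 on the opposite strand, and PAPPA-AS1 had a count of 0.

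The rest of the pathway was described through 5 lists with 56 genes, of which 39 were tested. Of these 39, 14 rose, 13 fell and 12 did not pass the test, with 7 of the rises and 4 of the falls beyond a log2 fold change of 1. Over all tested genes 30.1% rose and 30.1% fell, and past both thresholds the shares were 8.16% and 9.13%. Among the 39 list genes the median on the log2 scale was -0.0072. IGFALS reached the filter's level in all 3 siFUBP1 samples but in 1 siMock sample, and without it 13 genes rose, 6 of them beyond a log2 fold change of 1. The other 38 reached it in every sample.

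Among the proteases of the binding proteins and their inhibitors, 9 of 12 genes were tested. Of these, 2 rose and 6 fell, against 30.1% and 30.1% of all tested genes. STC2, a stanniocalcin that inhibits PAPP-A, had the highest fold change of the 39 genes. It was at 49.8, 42.6 and 40.7 CPM in siMock and at 445, 562 and 382 CPM in siFUBP1, a log2 fold change of 3.38 (SE 0.13, adjusted p = 2.19e-11), or 10.4-fold. Per length STC2 went from 7.16 to 75.2 FPKM, against 0.576 and 0.943 FPKM for PAPPA. Its relative STC1 was at 2.57 to 3.65 CPM in siMock and 3.43 to 4.58 CPM in siFUBP1, with overlapping groups (adjusted p = 0.121). ADAM9, a membrane metalloprotease, rose by 0.46 on the log2 scale.

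HTRA1, a secreted serine protease that cuts IGFBPs, fell the most in that list. It was at 76.2, 67.5 and 70.8 CPM in siMock and at 21.1, 20.01 and 19.1 CPM in siFUBP1, a log2 fold change of -1.83 (SE 0.09, adjusted p = 5.51e-15). The other falls were ADAM12 (-0.37), C1S (-0.51), C1R (-0.65), HTRA3 (-0.64) and MMP7 (-0.55), each with groups that did not overlap. Groups did not overlap for 63.9% of all tested genes. The call of MMP7 was lost without siMock replicate 2 (-0.46, adjusted p = 0.0775), without siFUBP1 replicate 2 (-0.37, adjusted p = 0.111) and with DESeq2 (adjusted p = 0.0617). C1S and C1R, the serine proteases of the first complement component, share exonic bases on the same strand with EMG1 and C1RL, so their counts are uncertain there. PAPPA2, ADAM28 and KLK3 were too low to be tested. The median of the list was -0.51.

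The other genes with an IGFBP-like domain were divided. Of 10, 6 were tested, and 4 rose and 2 fell, against 30.1% and 30.1% of all tested genes. The CCN genes, matricellular proteins whose first domain resembles an IGFBP, rose in 3 cases. CCN2 (listed as CTGF) was at 4.60, 4.24 and 4.23 CPM in siMock and at 24.9, 32.9 and 25.5 CPM in siFUBP1, a log2 fold change of 2.67 (adjusted p = 1.42e-14). CCN1 (CYR61) rose from 28.7 ± 2.29 CPM to 136 ± 21.0 CPM (SD, n = 3 in each group), or by 2.25 on the log2 scale. CCN3 (NOV) rose by 1.74 on that scale, from 8.44 ± 0.136 CPM to 28.2 ± 1.2 CPM (SD, n = 3 in each group).

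CCN5 (WISP2), which lacks the C-terminal domain of its relatives, went the other way. In siMock it had the highest level per length of the CCN genes, at 115 FPKM against 11.6 FPKM for CCN1. It fell from 636, 557 and 543 CPM in siMock to 270, 252 and 272 CPM in siFUBP1, a log2 fold change of -1.13 (adjusted p = 6.96e-12). CRIM1, a membrane protein that binds bone morphogenetic proteins, fell by 1.24 on the log2 scale, from 233 ± 13.0 CPM to 98.7 ± 8.68 CPM (SD, n = 3 in each group). KAZALD1, a secreted protein linked to bone formation, rose by 0.45. CCN4, CCN6, ESM1 and IGFBPL1 were too low to be tested.

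Of the other ligands, receptors and carrier subunit, 3 of 6 genes were tested. Set against 30.1% and 30.1% of all tested genes, 2 of the 3 rose and 1 fell. Among them IGF2R, which takes IGF2 to lysosomes, rose by 0.28 on the log2 scale, and INSR, the insulin receptor, fell by 0.38. IGFALS encodes the subunit that holds IGF and IGFBP3 in the large serum complex, and its counts were small, between 5 and 13 in siMock and between 20 and 31 in siFUBP1. It was at 0.797, 0.294 and 0.384 CPM in siMock and at 1.83, 1.15 and 1.49 CPM in siFUBP1 with groups that did not overlap. It entered the test only through siFUBP1, so that its rise in the count above carries no weight. It shares 64 exonic bases with SPSB3 on the same strand. The rise of IGF2R rested on siMock replicate 1, without which it was 0.19 (adjusted p = 0.0571).

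The IGF2 mRNA-binding proteins bind IGF2 and many other mRNAs and govern their stability and translation. IGF2BP2 rose by 0.80 and IGF2BP3 by 0.50 on the log2 scale, while IGF2BP1 fell by 0.52, each with groups that did not overlap. That was so for 63.9% of all tested genes. IGF2BP3 shares 17.9% of its exonic bases with MALSU1 on the opposite strand (47.6 CPM in siMock and 39.3 CPM in siFUBP1), so its count is uncertain there. H19, a long noncoding RNA of the IGF2 locus, was at 43.1, 28.1 and 35.5 CPM in siMock and at 42.3, 12.4 and 110 CPM in siFUBP1. The siFUBP1 samples spanned the siMock range on both sides, and the test did not pass (log2 fold change 0.63, SE 0.84, adjusted p = 0.570, and between 0.183 and 0.881 across the edgeR, DESeq2 and limma alternatives). Without siFUBP1 replicate 3 the log2 fold change of H19 was -0.38.

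Of the receptor substrates, adaptors and kinases downstream, 17 of 22 genes were tested. In this list 4 rose, 3 fell and 10 did not pass the test, while 30.1% of all tested genes rose and 30.1% fell. IRS1, the docking protein that couples IGF1R and the insulin receptor to PI3K, was at 11.9, 9.24 and 8.65 CPM in siMock and at 35.0, 36.0 and 30.3 CPM in siFUBP1, a log2 fold change of 1.76 (SE 0.12, adjusted p = 2.57e-12). Its relative IRS2 was more abundant, at 22.7 against 0.986 FPKM for IRS1 in siMock, and had a log2 fold change of 0.16 (adjusted p = 0.0833, and between 0.0290 and 0.277 across the edgeR, DESeq2 and limma alternatives). IRS2 passed the threshold with upper quartile scaling (0.20, adjusted p = 0.0290) and without siMock replicate 1 (0.21, adjusted p = 0.0362). It also passed with the replicate number as a block (0.16, adjusted p = 0.0409). GRB10, an adaptor that binds both receptors and dampens their signal, rose by 1.86 on the log2 scale, from 4.76 ± 1.12 CPM to 17.4 ± 3.18 CPM (SD, n = 3 in each group).

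INPPL1, which encodes the phosphatase SHIP2, fell by 0.48 on the log2 scale. FOXO1 and FOXO4, transcription factors that AKT keeps out of the nucleus, rose by 0.70 and 0.52. Their relative FOXO6 fell, from 9.25, 8.59 and 5.44 CPM in siMock to 1.66, 2.77 and 1.2 CPM in siFUBP1, a log2 fold change of -2.05 (adjusted p = 4.05e-07). With limma on log2(FPKM + 1) the values of IRS1, GRB10 and FOXO6, all of low FPKM, were 1.14, 0.90 and -1.24. PIK3R3, a regulatory subunit of PI3K, fell by 0.55, and it shares 17.4% of its exonic bases on the same strand with AL358075.4, which had a count of 0, so its count is uncertain there. PIK3CA, PIK3CB, PDPK1, AKT1, AKT2, GRB2, SHC1, SOS1 and FOXO3 did not pass the test, with log2 fold changes between -0.14 and 0.18. Of these, PIK3CA and PDPK1 share 35.8% and 23.7% of their exonic bases with genes on the opposite strand. SHC1 shares 335 exonic bases with PYGO2 on the same strand, and the counts of PIK3CA, PDPK1 and SHC1 are uncertain there. The sign of GRB2, SOS1 and PIK3CB, all near 0, changed with the processing, and SHC1 passed the threshold without siMock replicate 3 (-0.19, adjusted p = 0.0451).

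**Figure D3:**
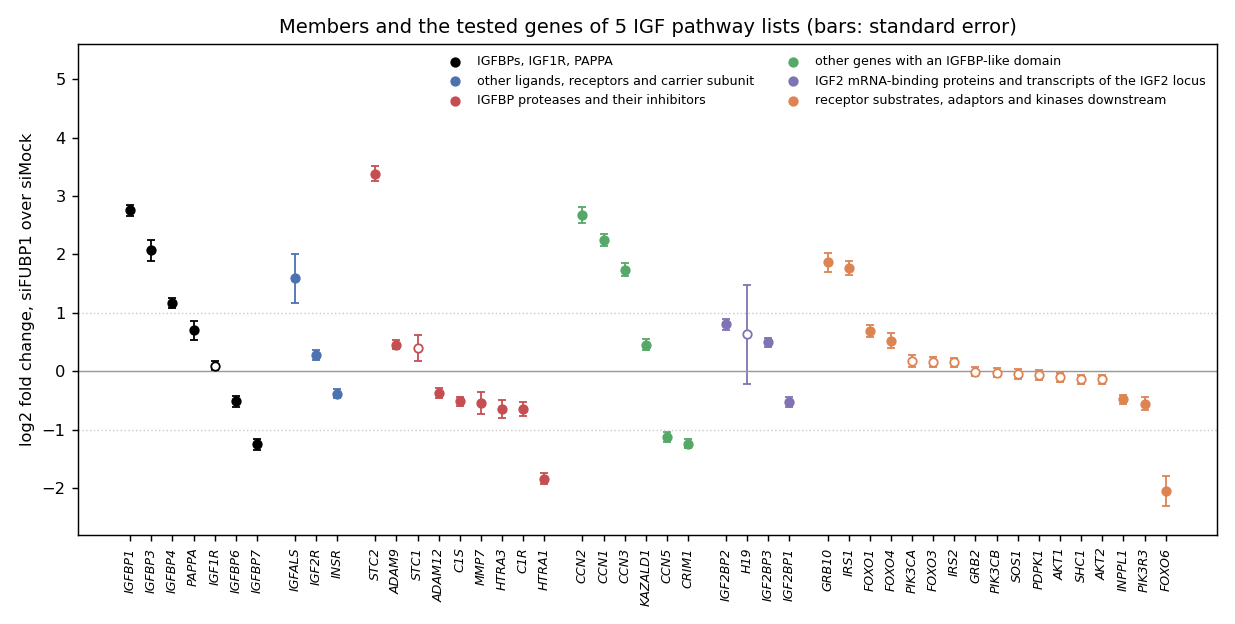
Log2 fold change (siFUBP1 over siMock, edgeR, bars for the standard error) of the 7 members tested and the 39 tested genes of 5 IGF pathway lists, grouped by list. Filled points passed an adjusted p of 0.05, open points did not, and dotted lines mark a log2 fold change of 1 and -1; STC2 is the highest point at 3.38 and FOXO6 the lowest at -2.05.

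The genes whose profile over the 6 samples was closest to that of a member were taken from 9613 other protein-coding genes whose mean reached 10 CPM. Likeness was the Euclidean distance between log2 profiles centred on their mean. Closest to IGFBP3 were TRIQK (distance 0.403), FKBP14 (0.407), which encodes a collagen-folding isomerase of the endoplasmic reticulum, and TPM4 (0.433), a tropomyosin. FKBP14 went from 32.5 ± 3.46 CPM to 127 ± 10.7 CPM (SD, n = 3 in each group), and TPM4 from 174 ± 12.4 CPM to 793 ± 22.1 CPM (SD, n = 3 in each group). Closest to IGFBP7, the member with the largest fall, were CDKN1C (0.133), an inhibitor of cyclin-dependent kinases, MSLN (0.146), which encodes mesothelin, and VPS51 (0.154). CDKN1C went from 291 ± 40.4 CPM to 119 ± 7.53 CPM, and MSLN from 347 ± 51.0 CPM to 141 ± 5.35 CPM (SD, n = 3 in each group). The distances to IGFBP3 were larger than those to IGFBP7, beside the wider replicate spread of IGFBP3. With groups this far apart, the distance mainly follows the fold change. On the log2 scale TRIQK, FKBP14 and TPM4 changed by 2.06, 1.97 and 2.19, against 2.07 for IGFBP3. CDKN1C, MSLN and VPS51 changed by -1.29, -1.30 and -1.26, against -1.25 for IGFBP7. Shared regulation was not tested.

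The calls of the 7 tested members held under each of the 15 alternatives that were run, which were other scalings, filters, tools and thresholds, a replicate block and leaving out each sample.

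**Figure D4:**
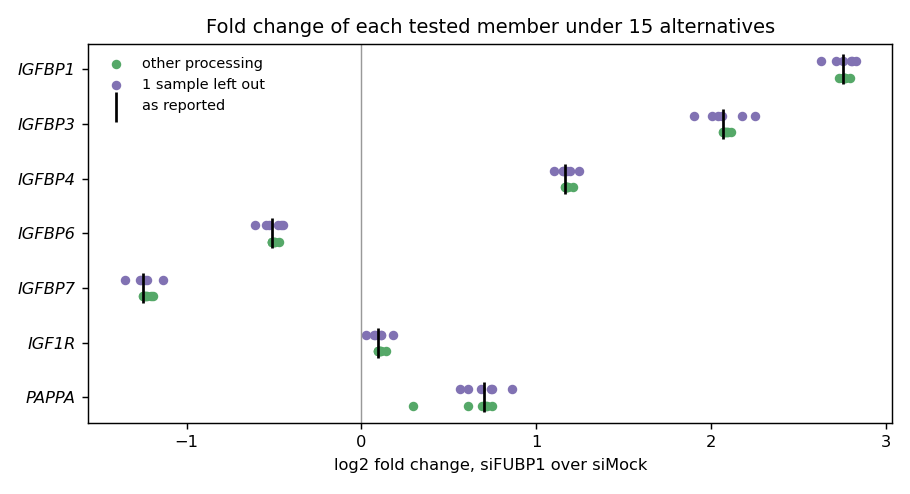
Log2 fold change (siFUBP1 over siMock) of each tested member as reported (black bar), with other processing (green points) and with 1 sample left out (purple points). The points of every member but IGF1R stay well to their own side of 0, and those of IGF1R lie between 0.028 and 0.18.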

How the data were processed

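Poly-A selected RNA of 6 MG63 samples, grouped by title, was sequenced by the authors, who deposited 1 table. The submitters' processing notes name HISAT2 2.0.5, StringTie 1.3.3b, featureCounts 1.5.0-p3 and DESeq2 1.16.1. The read counts per gene deposited by the authors are not normalized. The FPKM values deposited by the authors equal count over gene length times 1 factor per sample. Columns with the authors' group means, log2 fold changes and p-values were not used. All 58735 identifiers, starts and ends match GENCODE 29 on GRCh38.

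Counts were tested with edgeR 4.0.16 in R 4.3.3 (TMM, edgeR's expression filter, robust quasi-likelihood F test, Benjamini-Hochberg over 16116 genes). The same fit was first run on simulated counts in which far fewer genes were changed than were called here. That run therefore does not test the scaling or the rate of false calls in data like these. DESeq2 1.42.0 and limma 3.58.1 on log2(FPKM + 1) and log2(FPKM + 0.1) were alternatives. The members and gene lists were chosen with earlier results of these data known, and some genes of the lists are not reported here. Named were all members, FUBP1, list genes past both thresholds, the most abundant marker of each list and markers at 0, and the 3 closest profiles to IGFBP3 and IGFBP7 (log2 of CPM plus 0.5). Other genes were named after their values were seen. No 2 samples held identical counts. ChIP-seq and other experiments were not analysed here.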

Additional observations from a re-analysis of the deposited data

How the results depend on the processing

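For 37 of 45 tested genes (the 7 members and 38 list genes, IGFALS left out), direction and side of the threshold held under every alternative, members included. Over the alternatives the log2 fold change of IGFBP1 lay between 2.63 and 2.83, of IGFBP3 between 1.90 and 2.25, of IGFBP4 between 1.10 and 1.24, of IGFBP6 between -0.61 and -0.45, of IGFBP7 between -1.35 and -1.14, and of PAPPA between 0.30 and 0.86. With a mean of at least 50 counts, 731 genes rose and 931 fell past both thresholds, and with limma on log2(FPKM + 1) 462 and 588, against 1315 and 1472, since low genes were dropped or held down. In the list of other ligands and receptors 1 gene rose with that filter, where IGFALS was not tested, and between 1 and 2 when a sample was left out, while 2 fell with no filter on low counts. Summing IGFBP1 to IGFBP6 only, which leaves IGFBP7 out by construction, gave a ratio of 2.83, and differences in share of -5.99 points for IGFBP4 and -24.4 points for IGFBP6.

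Among uncalled genes, the log2 fold change of GRB2 changed sign to 0.035 with upper quartile scaling, 0.0082 with no filter and 7.73e-04 with DESeq2, and lay between -0.052 and 0.026 when a sample was left out. PIK3CB was at 0.021 with upper quartile scaling and between -0.066 and 0.025 when a sample was left out. SOS1 and H19 lay between -0.13 and 0.051 and between -0.38 and 1.11 when a sample was left out. The cause was not tested.

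Whether the replicate numbers pair the samples could not be settled with 3 samples per group. Deviations of same-numbered samples correlated at -0.0047, 0.017 and 0.12, and those of other pairs at -0.092 to 0.074. The highest value was thus of a same-numbered pair, but not every sample correlated best with its own number. With the number as a block, 5013 genes rose and 5001 fell against 4844 and 4851, and 4 members rose and 2 fell as before. Under the block IRS2 passed the threshold (0.16, adjusted p = 0.0409). Depth limits what can be said of genes with few or no reads, IGFBP2 and IGFBP5 among them, and overlap with other genes limits the zeros of IGF2 and IGF1.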
